A study of Mus musculus with 4 samples.

Results

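The glomeruli of the mouse kidney were profiled by single-cell RNA sequencing, and 8 regulators of the podocyte, Wt1, Lmx1b, Tcf21, Foxc2, Foxc1, Foxd1, Gbx1 and Cdkn1c, are described here. They were taken as a named list out of 55488 listed genes, and all 8 were counted in all 4 libraries. Glomeruli, the filtering units of the kidney, were taken from wild-type animals (WT) and from an Alport syndrome model (AS) carrying the Col4a5 G5X allele on the X chromosome, at 5 and at 8 weeks of age. Per the design text, AS mice at 5 weeks had neither proteinuria nor a changed basement membrane or podocyte structure, whereas at 8 weeks proteinuria was mild and both structures were abnormal. The titles and the design text give these ages, although the tissue field of the labels calls the kidney embryonic. The number, sex and strain of the mice behind a library are not given in the sources used here. Each genotype and age was 1 library, so a difference at one age lies between 2 libraries and has no replicate check, and all intervals are 95% intervals for counting error only. Over both ages each genotype had 2 libraries, and 1 fit of genotype is given beside the ratios.

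A podocyte is an epithelial cell whose interlocking foot processes, joined by slit diaphragms, cover the glomerular capillaries. They stop dividing when they mature, and a small circle of transcription factors keeps their gene programme running. Wt1 is a zinc-finger factor needed for kidney formation and later for podocyte genes such as Nphs1 and Podxl, and its mutations cause glomerular disease in children. Lmx1b, a LIM-homeodomain factor, is mutated in nail-patella syndrome, which can include a glomerular disease. Tcf21 is a basic helix-loop-helix factor of podocytes and of kidney stroma. Foxc1, Foxc2 and Foxd1 are forkhead factors, of which Foxc1 and Foxc2 also act in blood vessels and Foxd1 marks the stromal progenitors of the developing kidney. Gbx1 is a homeobox gene known mainly from the nervous system. Cdkn1c, an imprinted gene, encodes an inhibitor of cyclin-dependent kinases that appears when podocyte precursors leave the cell cycle.

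In the GRCm38 build, Wt1 lies at chr2:105126529-105173616 on the plus strand and Lmx1b at chr2:33560965-33640511 on the minus strand. Tcf21 lies at chr10:22817281-22820174, Gbx1 at chr5:24502757-24527202 and Cdkn1c at chr7:143458339-143461050, all on the minus strand. The 3 forkhead genes each have a single exon and lie on the plus strand, Foxc2 at chr8:121116171-121118895, Foxc1 at chr13:31806633-31812476 and Foxd1 at chr13:98354242-98359305. In the GENCODE M21 annotation Foxc2 overlaps the predicted gene Gm20388 on its own strand, and Lmx1b, Tcf21 and Cdkn1c each overlap a predicted gene on the other strand. How reads in such overlaps were counted is not given in the sources used here, so the values of these 4 genes carry that uncertainty.

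RefSeq promoter sequences of GRCm38.p6 were matched for 4 of the 8 members. All 4 matched sequences are shown. Lmx1b, Tcf21 and Foxd1 followed each other closely from cell class to cell class, as given further on, while Foxc1 did not. A part of these sequences in that was not tested. Each line gives 210 bases on the gene's own strand, from 250 to 41 bases before the RefSeq start, with the E-box CANNTG, the motif of basic helix-loop-helix factors, in capitals.
Lmx1b: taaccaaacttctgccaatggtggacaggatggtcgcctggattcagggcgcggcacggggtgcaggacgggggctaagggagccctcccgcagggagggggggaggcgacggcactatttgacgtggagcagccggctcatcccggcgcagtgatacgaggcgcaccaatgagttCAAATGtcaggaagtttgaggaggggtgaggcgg
Tcf21: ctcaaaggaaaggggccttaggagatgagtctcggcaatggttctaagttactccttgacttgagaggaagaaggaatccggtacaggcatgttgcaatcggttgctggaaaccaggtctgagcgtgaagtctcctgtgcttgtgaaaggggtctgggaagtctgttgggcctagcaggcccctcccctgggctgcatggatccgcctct
Foxc1: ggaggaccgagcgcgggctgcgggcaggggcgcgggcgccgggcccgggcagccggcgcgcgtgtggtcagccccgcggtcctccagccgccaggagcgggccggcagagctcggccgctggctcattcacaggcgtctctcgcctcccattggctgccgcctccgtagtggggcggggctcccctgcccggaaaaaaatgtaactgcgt
Foxd1: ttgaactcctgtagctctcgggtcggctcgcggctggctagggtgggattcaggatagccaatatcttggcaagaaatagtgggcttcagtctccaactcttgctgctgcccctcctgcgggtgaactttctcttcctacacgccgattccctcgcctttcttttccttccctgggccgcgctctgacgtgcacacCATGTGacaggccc
The windows are chr2:33641139-33641348 for Lmx1b, chr10:22820184-22820393 for Tcf21, chr13:31806396-31806605 for Foxc1 and chr13:98353995-98354204 for Foxd1. Searched on both strands were the E-box, the Wt1 core GCGTGGG, the forkhead core GTAAACA, the LIM-homeodomain core TAATTA and the GC box GGGCGG. An E-box starts 74 bases before the start of Lmx1b and 54 bases before that of Foxd1, and 60.7% of 32851 promoter windows of this length hold one. Foxc1 holds a GC box, as do 26.7% of windows, and no other match was found in the 4 windows. The remaining motifs occur in 3.51% (Wt1 core), 2.68% (forkhead core) and 4.37% (LIM-homeodomain core) of windows. The GC content was 75.2% for Foxc1, 63.3% for Lmx1b, 57.6% for Foxd1 and 54.8% for Tcf21, against a median of 51.9%. The distances count from the RefSeq start, and for Lmx1b that start lies upstream of the GENCODE interval given above. A match describes letters in a window and is not shown to be a bound site.

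Cells were kept with at least 500 genes, at least 1000 UMIs (unique molecular identifiers, each a counted mRNA molecule) and at most 20% mitochondrial UMIs, after removal of called doublets. The libraries held 74356581 to 126118422 UMIs, 5556 to 6832 cells were kept per library, and any 2 libraries shared 13 to 18 barcodes. Clustering ran without the 8 members, and clusters were named from markers that did not include them, so the choice of cells did not use the genes described. Podocyte-like cells were the clusters led by podocyte markers such as Nphs1, Ptpro and Magi2, numbers 0, 3, 4 and 24. The 5-week libraries held 1601 (WT) and 1413 (AS) of them and the 8-week libraries 2690 (WT) and 1522 (AS), or 28.8%, 21.9%, 43.8% and 22.3% of kept cells. All 10 podocyte markers were counted in every library, with Nphs1 at 2334 to 2832 CPM (UMIs of a gene per 1000000 UMIs of the class). Cluster 22, with 864 AS cells at 8 weeks, 39 AS cells at 5 weeks and 4 WT cells at 8 weeks, also scored best as podocyte, but none of its 10 leading genes, among them Rbfox1, Fgfbp1, Nupr1, Igfbp2 and the smooth muscle marker Tagln, was a podocyte marker. It is therefore given by its number beside the podocyte-like cells.

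The regulators did not differ as a block between AS and WT podocyte-like cells. Wt1, Lmx1b and Foxd1 were lower in AS at both ages, Gbx1 was lower by the most, and Cdkn1c was higher. Foxc2, Foxc1 and Tcf21 differed by at most 0.16 on the log2 scale. A gene was called past a 1.5-fold ratio of CPM + 5, and of the 8 members Gbx1 (lower) and Cdkn1c (higher) passed it, each at both ages. The floor for a call was 30 UMIs and 20 CPM in either library, and of all genes past it 3.48% were called at 5 weeks (2.05% higher, 1.43% lower) and 4.09% at 8 weeks (2.39% higher, 1.7% lower).

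Wt1 was counted at 1203 CPM (5 weeks) and 1186 CPM (8 weeks) in WT, and at 970 and 914.5 CPM in AS. Both AS libraries lay below both WT libraries, which differed from each other by a log2 ratio of -0.02 (8 over 5 weeks), and no member was past 1.5-fold between the WT libraries or between the AS libraries, where 2.36% and 1.54% of genes were. The log2 ratio of AS to WT was -0.31 (interval -0.33 to -0.29) at 5 weeks and -0.37 (-0.39 to -0.35) at 8 weeks. Wt1os, a noncoding gene on the opposite strand whose interval ends just before the start of Wt1, was at 664.8 CPM (5 weeks) and 657.4 CPM (8 weeks) in WT, and at 531 and 503 CPM in AS, with log2 ratios of -0.32 and -0.38.

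Lmx1b stood at 380.5 CPM (5 weeks) and 328 CPM (8 weeks) in WT, and at 306 and 239.8 CPM in AS. The AS libraries were again the lowest, but the WT libraries also differed, by a log2 ratio of -0.21 (8 over 5 weeks). AS over WT was -0.31 (-0.35 to -0.27) at 5 weeks and -0.44 (-0.48 to -0.40) at 8 weeks. Against the 5-week WT library, the ratio of AS at 8 weeks was -0.66, past 1.5-fold.

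Tcf21 had no shared direction between the ages. It was at 831.2 CPM (5 weeks) and 955.3 CPM (8 weeks) in WT, and at 785 and 1067 CPM in AS, so the 8-week libraries were the higher ones in both genotypes. AS over WT was -0.08 (-0.11 to -0.06) at 5 weeks and 0.16 (0.14 to 0.18) at 8 weeks, both smaller than the WT difference between ages of 0.20. With age in AS the log2 ratio was 0.44 (0.42 to 0.46).

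Foxc2 and Foxc1, close relatives in the forkhead family, stayed nearly level. Foxc2 was at 236.1 CPM (5 weeks) and 260.7 CPM (8 weeks) in WT, and at 232.8 and 233.2 CPM in AS. Foxc1 was at 131.6 (WT) and 137.8 CPM (AS) at 5 weeks, then 138.8 (WT) and 135.3 CPM (AS) at 8 weeks, so its groups overlapped. AS over WT was -0.02 and -0.16 for Foxc2 and 0.06 and -0.04 for Foxc1, at 5 and 8 weeks, beside differences of 0.14 and 0.07 between the WT libraries.

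Foxd1, the third forkhead gene, was at 406 CPM (5 weeks) and 417.4 CPM (8 weeks) in WT, and at 379.6 and 331.7 CPM in AS. Both AS libraries lay below both WT libraries, more so at 8 weeks. The log2 ratio was -0.10 (-0.13 to -0.06) at 5 weeks and -0.33 (-0.36 to -0.29) at 8 weeks, against 0.04 between the WT libraries.

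Gbx1 UMIs numbered 1227 (WT) and 673 (AS) in the 5-week libraries and 1566 (WT) and 421 (AS) in the 8-week libraries. These counts are 45.48, 21.79, 39.9 and 13.4 CPM, with both AS libraries well below both WT libraries. The log2 ratio was -0.91 (-1.03 to -0.80) at 5 weeks and -1.29 (-1.41 to -1.17) at 8 weeks. Between the WT libraries it was -0.17, and from 5 to 8 weeks in AS it was -0.54 (-0.68 to -0.41).

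Cdkn1c differed in the other direction. It was at 4579 CPM (5 weeks) and 4677 CPM (8 weeks) in WT, and at 8034 and 7214 CPM in AS. The WT libraries were nearly equal (log2 ratio 0.03), and both AS libraries lay above them. AS over WT was 0.81 (0.80 to 0.82) at 5 weeks and 0.62 (0.62 to 0.63) at 8 weeks, or 1.75-fold and 1.54-fold. When each cell was given the same weight, the 8-week ratio was 0.57, just inside 1.5-fold.

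**Figure D1:**
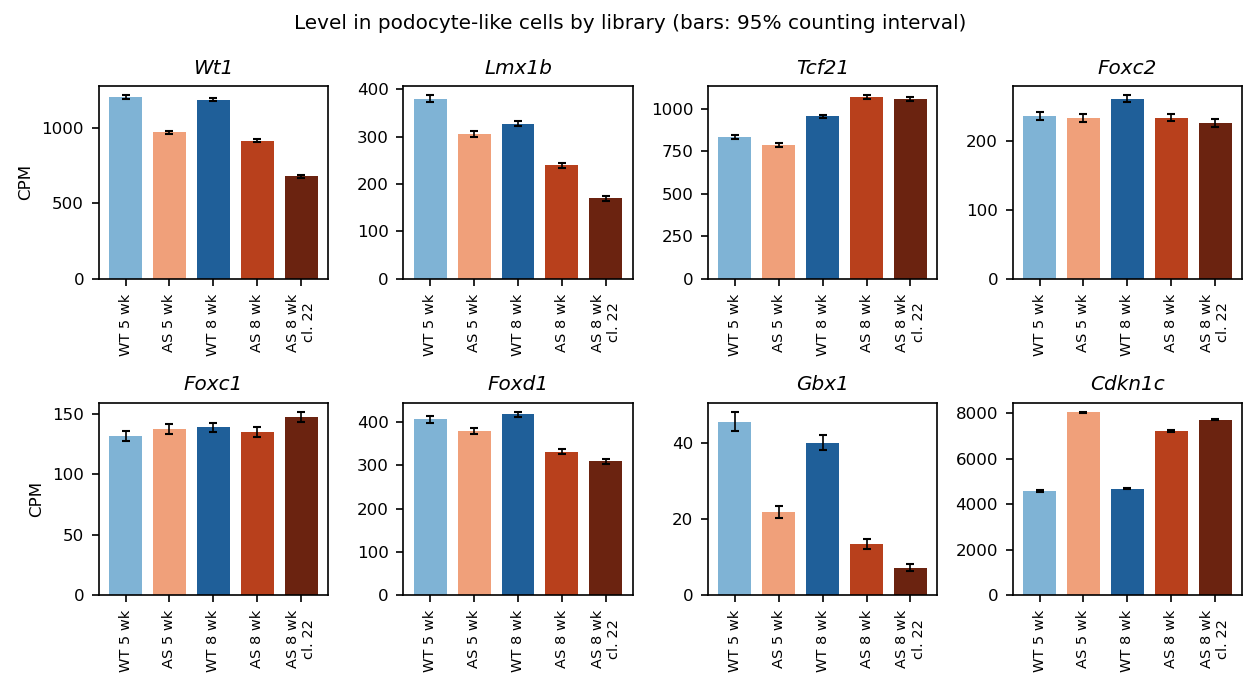
Each bar is the level of a member (CPM, axis from 0) in the podocyte-like cells of 1 library, with cluster 22 of the AS 8-week library as the last bar and 95% counting intervals. Gbx1 stands at 45.48 and 39.9 CPM in WT and at 21.79 and 13.4 CPM in AS, while Cdkn1c stands at 4579 and 4677 CPM in WT and 8034 and 7214 CPM in AS.

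For 5 of the 8 members (Wt1, Lmx1b, Foxc2, Foxd1 and Gbx1) both AS libraries lay below both WT libraries, and for Cdkn1c both lay above. Among all 7024 genes past the floor in at least 1 library, 28.9% had both AS libraries below and 23.4% both above, so such an order is common in these 4 libraries. For Foxc2 the gap was small, since the counting intervals of AS (227.5 to 238.3 CPM) and WT (230.3 to 242 CPM) at 5 weeks overlapped. Of the 10 podocyte markers, Ptpro, Magi2, Thsd7a and Plce1 were lower and Tdrd5 was higher in both AS libraries.

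Markers of other cells in the podocyte-like cells also differed between libraries. In the 5-week WT, 5-week AS, 8-week WT and 8-week AS libraries, summed smooth muscle markers were 830.1, 938.9, 796.9 and 932.2 CPM, with 1 of 8 markers at 0 in each. Summed glomerular endothelial markers were 1877, 1576, 2042 and 1720 CPM with none of 10 at 0, and mesangial markers 58.3, 70.25, 46.22 and 71.53 CPM with none of 9 at 0. Summed fibroblast markers were 347.8, 358.2, 314.7 and 421.5 CPM, with 2, 2, 0 and 1 of 6 at 0. Summed parietal epithelial markers were 157.7, 102.5, 175.7 and 98.26 CPM, with 2, 1, 0 and 3 of 7 markers at 0. Summed proximal tubule markers were 5.337, 7.802, 92.33 and 13.08 CPM, with 4, 4, 0 and 1 of 7 at 0. Parietal and glomerular endothelial markers were thus lower and smooth muscle, mesangial and fibroblast markers higher in both AS libraries, and WT at 8 weeks had the most tubule RNA. Their part in the members' ratios was not tested.

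Over both ages, genotype was fitted with age as a term to the summed counts of the 4 libraries, which leaves 1 residual degree of freedom. By edgeR's quasi-likelihood test with Benjamini-Hochberg adjustment over 7024 genes, Gbx1 was lower in AS (log2 -1.31, adjusted p = 0.00136), Lmx1b was lower (-0.38, adjusted p = 0.0418) and Cdkn1c was higher (0.72, adjusted p = 0.00432). Wt1 (-0.34, adjusted p = 0.0608) and Foxd1 (-0.21, adjusted p = 0.192) did not pass 0.05, nor did Foxc2 (0.53), Tcf21 (0.81) and Foxc1 (0.882), and 13.1% of all genes passed it. With genotype alone, which counts the difference between ages as spread, 0.37% of genes and none of the members passed, and edgeR's adjusted p was 0.118 for Gbx1, 0.0832 for Cdkn1c and 0.307 for Lmx1b. The calls therefore rest on the age term, and the fit was added after the ratios were seen.

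**Figure D2:**
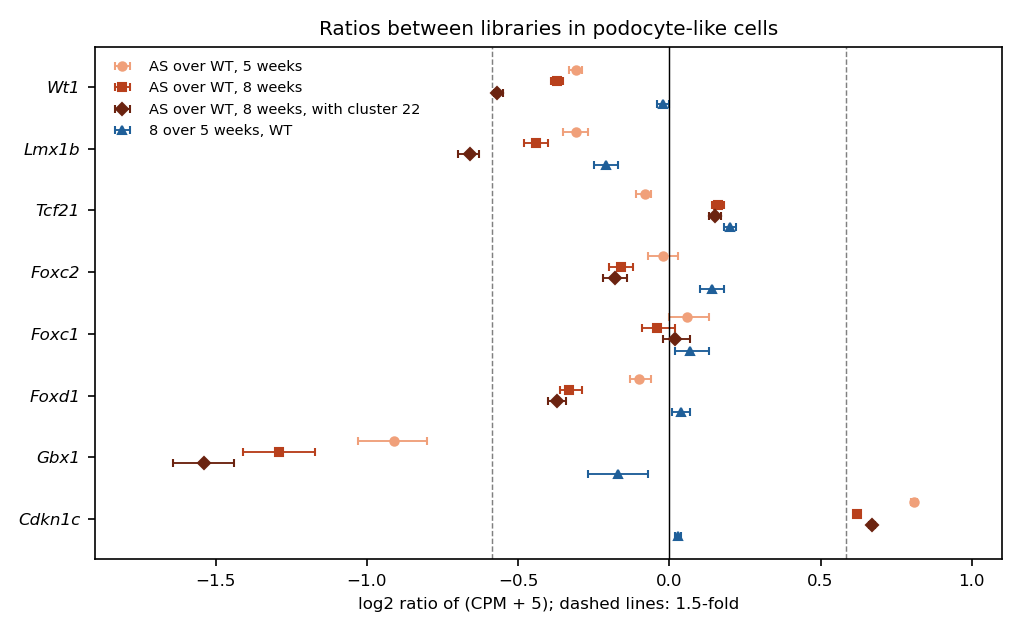
Points are log2 ratios of CPM + 5 in podocyte-like cells, with 95% counting intervals, for AS over WT at 5 weeks, at 8 weeks and at 8 weeks with cluster 22 added, and for 8 over 5 weeks in WT. Gbx1 lies left of the lower 1.5-fold line and Cdkn1c right of the upper one in each AS over WT comparison, Lmx1b passes the line at -0.66 with cluster 22, and the WT points lie between -0.21 and 0.20.

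At 5 weeks AS and WT podocyte-like cells shared cluster 0, and at 8 weeks they lay mostly in different clusters. Cluster 0 held 1443 WT and 786 AS cells at 5 weeks, cluster 3 held 608 AS cells at 5 weeks and 1361 AS cells at 8 weeks, and cluster 4 held 2458 WT cells at 8 weeks. Within a cluster, the direction for Gbx1 and Cdkn1c was the same and the size differed. In cluster 0 at 5 weeks Gbx1 was at 48.11 CPM (WT) and 24.57 CPM (AS), with a ratio of -0.84 on the log2 scale (upper bound -0.69). Cdkn1c there was at 4544 and 7399 CPM, a ratio of 0.70, Wt1 at 1213 and 1020 CPM (-0.25) and Lmx1b at 384.9 and 310.7 CPM (-0.30). Gbx1 and Cdkn1c were past 1.5-fold in this cluster, as were 2.35% of all genes.

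At 8 weeks each shared cluster had few cells of 1 genotype. In cluster 3, with 136 WT cells, Cdkn1c was at 5607 CPM (WT) and 7294 CPM (AS) (0.38), and Gbx1 at 18.47 and 12.87 CPM (-0.39, interval -0.74 to -0.04), while 2.5% of genes were past 1.5-fold. In cluster 4, with 89 AS cells, Cdkn1c was at 4633 and 5639 CPM (0.28) and Gbx1 at 41.16 and 22.96 CPM (-0.72), with 3.45% of genes past 1.5-fold. In cluster 0, with 96 WT and 69 AS cells, Cdkn1c was at 3803 and 6147 CPM (0.69) and Gbx1 at 50.12 and 21.12 CPM (-1.08), with 9.7% of genes past it. At 8 weeks neither gene passed 1.5-fold in cluster 3, and in cluster 4 Gbx1 did and Cdkn1c did not. Without the cluster that held most AS cells, AS over WT was -0.32 for Gbx1 at 5 weeks and 0.34 for Cdkn1c at 8 weeks, both inside 1.5-fold. At 5 weeks that cluster was number 0, which held most WT cells as well, and 106 of the WT cells left were those of cluster 24, where Gbx1 was at 25.59 CPM.

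The clusters of a single library differed in the same genes. In WT at 8 weeks, from cluster 0 through cluster 4 to cluster 3, Gbx1 was at 50.12, 41.16 and 18.47 CPM, Wt1 at 1280, 1194 and 1037 CPM and Lmx1b at 389.2, 330.2 and 274.7 CPM. Over the same clusters Cdkn1c was at 3803, 4633 and 5607 CPM, the reverse order. In AS at 8 weeks cluster 3 was again lowest for Gbx1 (12.87 CPM) and highest for Cdkn1c (7294 CPM), but clusters 0 and 4 stood the other way round, with Gbx1 at 21.12 and 22.96 CPM and Cdkn1c at 6147 and 5639 CPM. Between clusters 3 and 0 of WT Gbx1 was past 1.5-fold, as were 7.8% of genes, and Cdkn1c was inside it (0.56). The Gbx1 level of these WT cells in cluster 3 was next to that of AS cells in the same cluster at 5 weeks, 18.45 CPM. Median depth in these WT cells was 9974, 14385.5 and 18572.5 UMIs in clusters 0, 4 and 3, and its part was not tested. Cluster 24, with 106 WT cells at 5 weeks and led by the interferon-induced gene Gbp2 (2279 CPM, against 35.49 CPM in cluster 0), had Gbx1 at 25.59 CPM against 48.11 CPM in cluster 0, past 1.5-fold with 2.48% of genes. Its Wt1 (1161 CPM) and Cdkn1c (4875 CPM) were close to those of cluster 0 (1213 and 4544 CPM).

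In cluster 22 Wt1, Lmx1b and Gbx1 were lower still. Compared with the podocyte-like cells of AS at 8 weeks, Wt1 was at 678.9 against 914.5 CPM (log2 ratio -0.43), Lmx1b at 169.7 against 239.8 CPM (-0.49) and Gbx1 at 7.237 against 13.4 CPM (-0.59, which is past 1.5-fold but under the floor of 20 CPM). Of all genes 3.28% were called in this comparison. Wt1os was past 1.5-fold as well, at 306.7 against 503 CPM (-0.70). Tcf21 (1058 against 1067 CPM), Foxc2 (225.7 against 233.2 CPM) and Cdkn1c (7712 against 7214 CPM) differed by at most 0.10 on the log2 scale. Nphs1, the slit diaphragm gene that Wt1 is known to bind, was at 1930 CPM in cluster 22 and 2334 CPM in the podocyte-like cells. The cells of cluster 22 were deep, with a median of 26479.5 UMIs, and summed smooth muscle markers were 2192 CPM with none of 8 at 0, of which Tagln gave 1209 CPM. With cluster 22 added to the podocyte-like cells at 8 weeks, AS over WT became -0.57 for Wt1, -0.66 for Lmx1b, -1.54 for Gbx1 and 0.67 for Cdkn1c, and 7.45% of genes were called. Lmx1b then passed 1.5-fold.

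**Figure D3:**
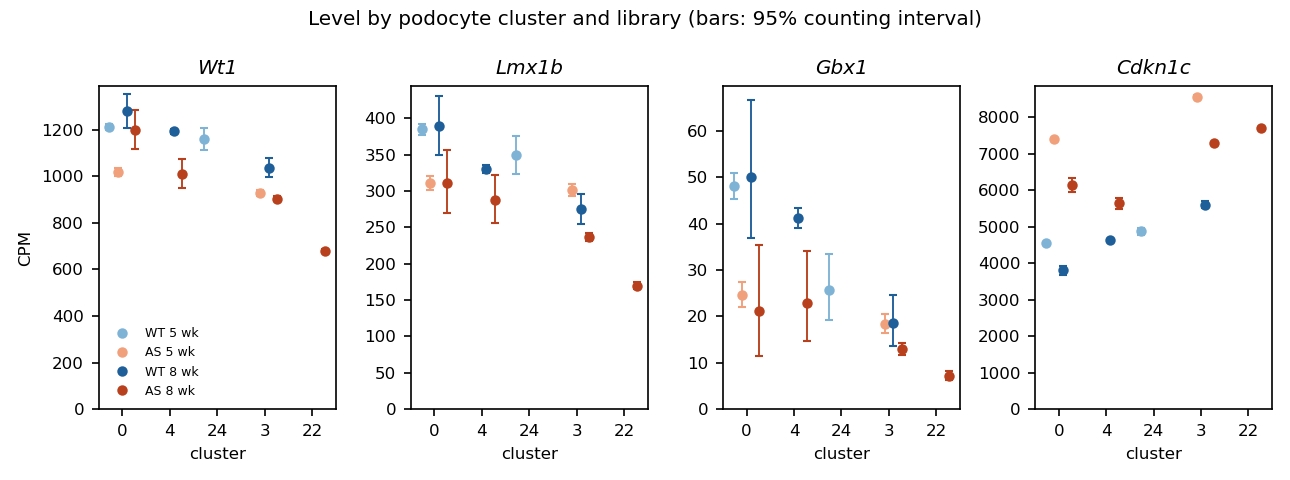
Points are the CPM of Wt1, Lmx1b, Gbx1 and Cdkn1c (axes from 0) in each podocyte cluster and library with at least 50 cells, with 95% counting intervals. In WT at 8 weeks Gbx1 goes from 50.12 CPM in cluster 0 to 18.47 CPM in cluster 3, in AS at 8 weeks cluster 22 is lowest for Wt1 (678.9 CPM), Lmx1b and Gbx1, and within clusters 0, 3 and 4 Cdkn1c is higher in AS.

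Nearly every podocyte-like cell held Wt1, Tcf21 and Cdkn1c. After each cell was thinned to 5000 UMIs, with 65 to 250 shallower cells per library left out, Wt1 was found in 99.3% of WT cells at either age, in 97.8% of AS cells at 5 weeks and in 96.8% at 8 weeks. Tcf21 was found in 96.1% to 97.9% and Cdkn1c in 99.7% to 100% of cells. The median WT cell held 20 (5 weeks) or 21 (8 weeks) Cdkn1c UMIs and the median AS cell 38 or 34, while the Wt1 median was 6 for WT and 4 for AS cells at both ages. For Cdkn1c at 5 weeks, the tenth percentile of AS cells, 20 UMIs, equalled the median of WT cells, so the higher level was spread over most cells.

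Lmx1b and Gbx1 were found in fewer AS cells. Lmx1b was in 82.3% of WT (80.3% to 84.2%) and 73.3% of AS cells (70.8% to 75.6%) at 5 weeks, and in 75.7% and 64.1% at 8 weeks, against 54.1% in cluster 22. Gbx1 was in 20.9% and 10.6% of cells at 5 weeks and in 17.5% and 6.37% at 8 weeks, against 3.72% in cluster 22. The WT and AS intervals of both genes did not overlap at either age. Those of Wt1 did not overlap at either age as well, and those of Foxd1 did not at 8 weeks. These intervals treat the cells of a library as independent and leave out the spread between mice. How many of all genes would show such a gap was not tested. Without thinning, in the 5-week WT, 5-week AS, 8-week WT and 8-week AS libraries, Gbx1 was found in 42.8%, 31.3%, 36.7% and 19.6% and Lmx1b in 96.4%, 96.1%, 93.3% and 89.9% of cells, so that the Lmx1b difference at 5 weeks appeared at matched depth. The forkhead genes differed less. In the same order, Foxd1 was in 84.4%, 82.8%, 86.7% and 78.2%, Foxc2 in 69%, 66.6%, 72.2% and 68.8%, and Foxc1 in 46.1%, 49.3%, 49.5% and 48.7% of thinned cells.

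Free RNA gives such shares a background. In glomerular endothelial-like cells, which should lack these podocyte genes, the thinned share was 4.62% to 13.5% for Wt1, 1.07% to 4.11% for Lmx1b and 0.0669% to 0.483% for Gbx1. Cdkn1c, abundant in podocytes, was found in 21.3% to 63.8% of these cells. Median unthinned depth was 14404.5 to 17825 UMIs in podocyte-like and 6028 to 7012 UMIs in glomerular endothelial-like cells.

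At least 5 of the 8 members were found in 94.3% of WT and 89.8% of AS podocyte-like cells at 5 weeks, in 94.6% and 88.7% at 8 weeks, and in 80% of cells of cluster 22. The same held for 0% to 0.0669% of glomerular endothelial-like and 0.0899% to 2.22% of mesangial-like cells. In every library the set was thus found together in podocyte-like cells far more often than in these neighbours.

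**Figure D4:**
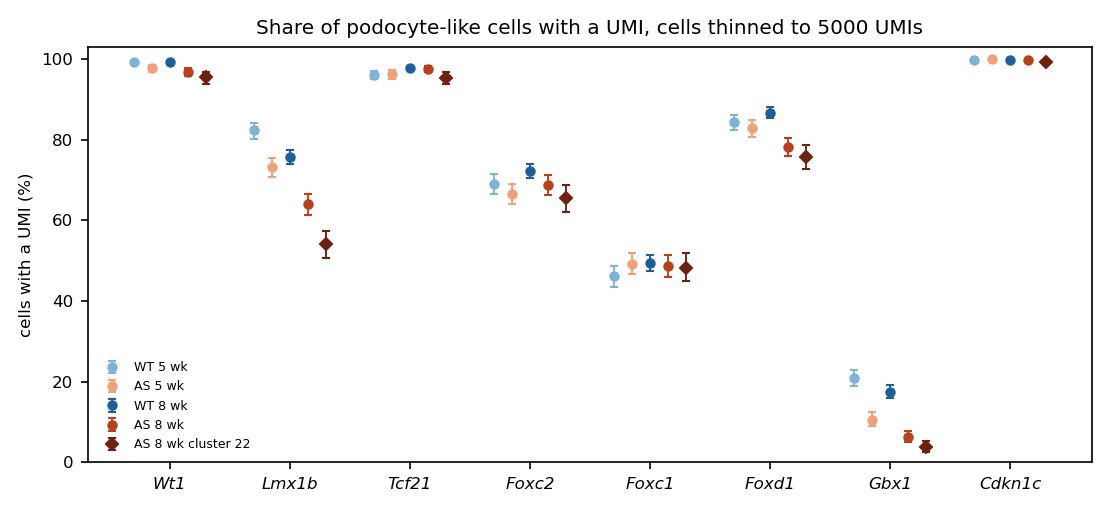
Points are the percentage of cells with at least 1 UMI of a member after thinning to 5000 UMIs, with 95% Clopper-Pearson intervals, for the podocyte-like cells of each library and for cluster 22. Wt1, Tcf21 and Cdkn1c lie above 95% everywhere, whereas Lmx1b ranges from 82.3% in WT at 5 weeks to 54.1% in cluster 22 and Gbx1 from 20.9% to 3.72%.

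Outside podocytes the members parted. Lmx1b, Foxd1 and Gbx1 did not pass a limit of 2 times the level of free RNA in the other classes, Wt1 was also present in mesangial-like cells, the contractile support cells between the capillaries, and Foxc1, Foxc2 and Tcf21 reached into the vessel wall. As a yardstick for free RNA, the share of the podocyte level at which Nphs1 or Clic3, both podocyte markers, appeared in a class was applied to each member, taking the higher of the pair. A member was counted as above it when the lower interval bound of its level passed 2 times that value; the limit and the choice of Clic3 were made after the values were seen. Of 192 levels of a member in a class and library, 30 passed, and with Nphs1 alone 46 did. Classes with under 50 cells in a library are not given.

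For Lmx1b, Foxd1 and Gbx1 no class of any library passed this limit, with Nphs1 alone as well. The lower bound of the level did lie above the yardstick itself for Lmx1b in the mesangial-like cells of 3 libraries, for Gbx1 in those of both WT libraries and in the smooth muscle or renin-like cells of WT at 8 weeks, and for Foxd1 in the smooth muscle or renin-like cells of AS at 5 weeks. In mesangial-like cells Lmx1b was at 4.547, 4.525, 23.32 and 2.625 CPM in the 5-week WT, 5-week AS, 8-week WT and 8-week AS libraries, where free RNA would give 2.755, 3.428, 14.2 and 3.429 CPM. The high value of WT at 8 weeks stood beside a higher share of free RNA in that library, 4.33% of the podocyte level in mesangial-like cells against 0.724% to 1.43% in the others. Gbx1 had no UMI in the smooth muscle or renin-like cells of 3 libraries, which at 3 UMIs allows up to 1.973 CPM (5-week WT), 1.405 CPM (5-week AS) and 1.822 CPM (8-week AS), so its low counts limit this comparison.

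Wt1 in mesangial-like cells was at 171.2 CPM (5 weeks) and 188.4 CPM (8 weeks) in WT, and at 198.9 and 138.4 CPM in AS. These are 14.2%, 20.5%, 15.9% and 15.1% of the podocyte level and 3.67 to 19.6 times the yardstick, lowest in WT at 8 weeks, where free RNA would give 51.33 CPM. AS over WT in these cells was 0.21 (0.14 to 0.28) at 5 weeks and -0.43 (-0.58 to -0.28) at 8 weeks, both inside 1.5-fold, which 2% and 4.06% of all genes passed. At 8 weeks free RNA would give 13.08 CPM in AS against the 51.33 CPM in WT, and its part in the ratio was not tested. Wt1 was found in 52%, 55.6%, 46.7% and 45.2% of mesangial-like cells thinned to 5000 UMIs, far above its share in glomerular endothelial-like cells. In no other class with at least 50 cells did Wt1 pass the limit, although its lower bound lay above the yardstick itself in the myeloid-like cells of 3 libraries and the glomerular endothelial-like cells of AS at 5 weeks.

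Foxc1 was higher in mesangial-like cells than in podocyte-like cells. Its levels there were 232.6, 258.4, 232.2 and 197.4 CPM, or 177%, 188%, 167% and 146% of the podocyte level. It was found in 65.2%, 69.1%, 63.7% and 60.4% of thinned mesangial-like cells, more than in the podocyte-like cells of the same library. AS over WT was 0.15 (0.09 to 0.21) at 5 weeks and -0.23 (-0.36 to -0.09) at 8 weeks. In smooth muscle or renin-like cells, the cells of the arteriole wall, Foxc1 was at 145.4, 117.6, 102.8 and 114.8 CPM. In glomerular endothelial-like cells it passed the limit in 3 of 4 libraries, at no more than 10.58 CPM. It also passed in 78 distal tubule-like cells of WT at 8 weeks (159.8 CPM), in 51 myeloid-like cells of WT at 5 weeks (51.75 CPM) and in the arterial endothelial-like cells of the 5-week libraries (11.75 and 11.53 CPM) and of WT at 8 weeks (38.86 CPM).

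Foxc2 was at 41.44, 34.2, 51.84 and 38.86 CPM in smooth muscle or renin-like cells, 14.7% to 19.9% of its podocyte level and above the yardstick in all 4 libraries. It was at 11.75 and 9.496 CPM in the arterial endothelial-like cells of the 5-week libraries, also above, and in mesangial-like cells it passed in WT at 5 weeks (4.477 CPM, where free RNA would give 1.709 CPM). Foxc1 and Foxc2 both passed the limit in the arteriole wall in all 4 libraries. In mesangial-like cells Foxc1 passed it in all 4 and Foxc2 in 1. The lower bound for Foxc2 also lay above the yardstick itself in the mesangial-like cells of both AS libraries. With Nphs1 alone Foxc2 also passed in the mesangial-like cells of both AS libraries and in the glomerular endothelial-like cells of 3 libraries, at no more than 7.089 CPM.

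Tcf21 was at 22.37, 22.02, 75.15 and 42.5 CPM in smooth muscle or renin-like cells. It passed the limit in the 5-week libraries, and with Nphs1 alone in all 4. Its lower bound lay above the yardstick itself in all 4. This class held 2 clusters, number 14 led by Ren1, the renin gene, and number 20 led by the pericyte gene Rgs5 and smooth muscle Myh11. In WT at 8 weeks Tcf21 was at 119.6 CPM (108.4 to 131.6) in cluster 20, where free RNA would give 37.26 CPM, and at 29.83 CPM in cluster 14, where it would give 34.83 CPM. In AS at 8 weeks the clusters had 78.6 and 16.67 CPM of Tcf21, so cluster 20 was the higher one in both libraries. Ren1 in cluster 20 was 246.3 CPM in WT and 80.05 CPM in AS, and in cluster 14 of AS it was 5294 CPM. Foxc1 had the opposite order, at 75.14 CPM in cluster 20 and 131 CPM in cluster 14 of WT, and at 66.95 and 149 CPM in AS.

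Cdkn1c did not pass the limit in nearly all other classes, although its lower bound often lay above the yardstick itself. In glomerular endothelial-like cells it was at 56.42, 121.7, 252.5 and 195.6 CPM, where free RNA would give 45.79, 76.08, 158.1 and 177.5 CPM. The exception was the arterial endothelial-like class of WT at 5 weeks, with 125.7 CPM of Cdkn1c against 32.97 CPM, and the class did not pass in the other 3 libraries. The lower bound for Cdkn1c did lie above the yardstick itself in the glomerular endothelial-like, arterial endothelial-like and mesangial-like cells of every library. The same held for the smooth muscle or renin-like cells of every library but WT at 5 weeks. With Nphs1 alone Cdkn1c also passed in the glomerular endothelial-like cells of 3 libraries, all but WT at 8 weeks, and in the arterial endothelial-like and smooth muscle or renin-like cells of AS at 8 weeks, so its place relative to free RNA depends on the gene used. AS over WT for Cdkn1c was 1.04 (5 weeks) and -0.36 (8 weeks) in glomerular endothelial-like cells. In smooth muscle or renin-like cells it was 0.98 and -0.47. It was 1.03 and -0.90 in mesangial-like cells, where 2% and 4.06% of all genes were past 1.5-fold. The part of free RNA in these ratios was not tested.

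**Figure D5:**
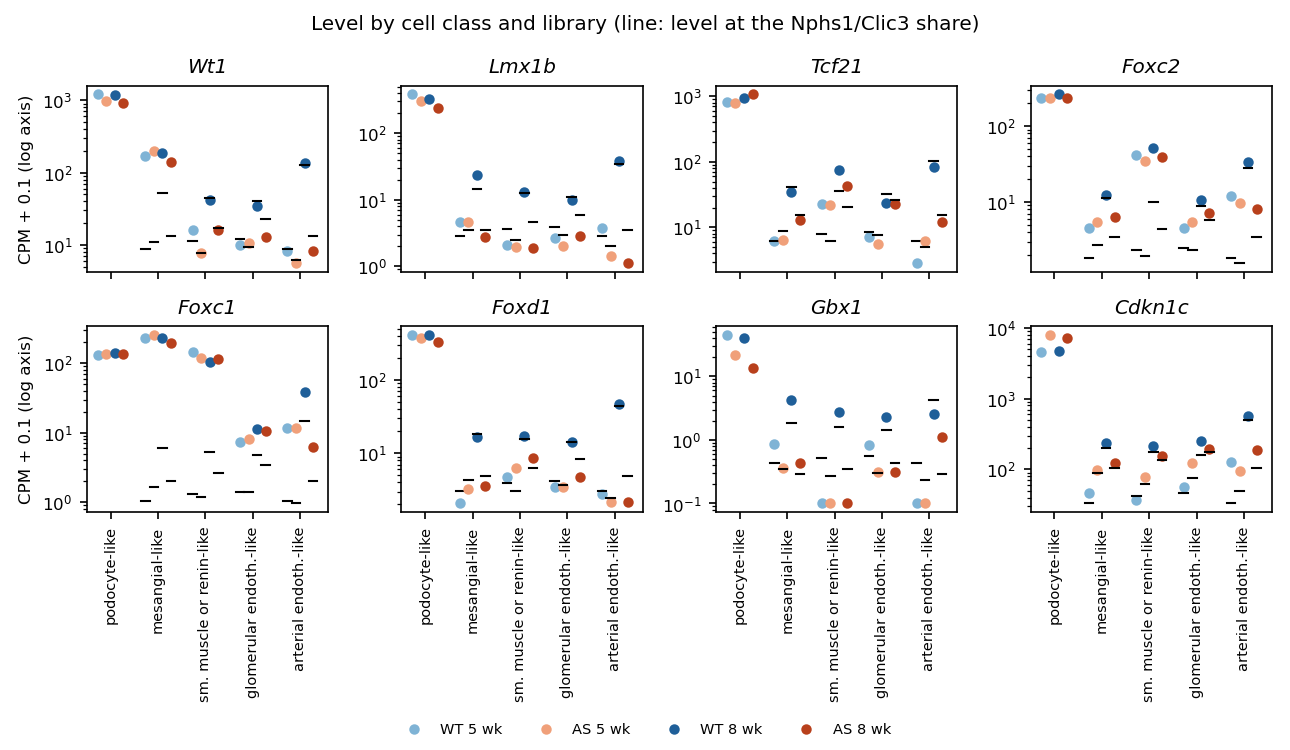
Points are CPM + 0.1 on a log axis for each member, by cell class and library, and short black lines mark the level that free RNA would give at the higher of the Nphs1 and Clic3 shares. Foxc1 points in mesangial-like cells (197.4 to 258.4 CPM) lie above those in podocyte-like cells, Wt1 lies above its lines in mesangial-like cells, and Lmx1b, Foxd1 and Gbx1 lie near their lines outside podocytes.

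Across 28 sums of a class and library with at least 50 cells, Lmx1b and Foxd1 were nearly parallel (Pearson r = 0.99 of log2(CPM + 5)), as were Tcf21 and Foxd1 (0.98), while Foxc1 reached 0.34 to 0.67 with the other members. These points share libraries, depth and free RNA, and r describes them without a test. The genes closest to Lmx1b were Wipf3, Adcy1, Sema3e and Foxd1 (0.988 to 0.992), those closest to Foxd1 were Arhgef16, Lmx1b, Plagl1 and Wipf3 (0.986 to 0.989), and those closest to Tcf21 were Arhgef16, Itgb8, Pcsk6 and Cd59b (0.978 to 0.985). For Wt1 they were Mmp23, Wt1os, Robo2 and Sh2d4a (0.973 to 0.981). Foxc2 was closest to Fzd2, Usp13, Klhl29 and Sgip1 (0.959 to 0.975) and Gbx1 to Adcy1, Crb2, Wif1 and Nxph3 (0.938 to 0.946). Cdkn1c was closest to B3galt2, Rab3b, Tmem54 and Clic3 (0.971 to 0.979). Foxc1 was closest to Hoxc5, Tenm3, Arhgef17 and Fat1 (0.954 to 0.959), none of which was among the closest genes of another member.

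Within podocytes the order of likeness was another. Over 10 sums of a podocyte-like cluster and library, Lmx1b went with Gbx1 (r = 0.90) and Wt1 with Lmx1b (0.84) and Gbx1 (0.83), while Cdkn1c ran against Wt1 (-0.86), Gbx1 (-0.81) and Lmx1b (-0.71). Foxc1 and Foxc2 lay between -0.25 and 0.52 with the other members. The points come from AS and WT libraries, so these values repeat the difference between genotypes. Closest to Wt1 were Rmnd5a, Etl4, Ntng2 and Nek1 (0.954 to 0.978), to Lmx1b Ksr1, Dagla, Anks1 and Gtf3c2 (0.948 to 0.966), and to Gbx1 Tcf7l1, Trabd2b, Rnf169 and Tmem150c (0.938 to 0.958). Closest to Cdkn1c were Arpc1b, a subunit of the actin-nucleating Arp complex, the integrin chain Itgb1, Map7d1 and Dcdc2a (0.945 to 0.978). Tcf21 was closest to St13, Slc35d1, Ppp6c and Hspb1 (0.909 to 0.927) and Foxc2 to Nmt2, Hoxa9, Tbce and Sqstm1 (0.884 to 0.919). Foxc1 was closest to Gps1, Syngr2, Pop4 and Pet100 (0.887 to 0.912) and Foxd1 to Arhgef1, Crip2, Ppp4r1l-ps and Capn7 (0.839 to 0.895).

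Of 38 other regulators known from podocytes, 25 passed the floor. None of them was past 1.5-fold at 5 weeks, where 3.48% of all genes were, and 1 was at 8 weeks, where 4.09% were, so the list stood near the share of all genes. It was Rarb, a retinoic acid receptor (52.2 CPM in AS against 92.23 CPM in WT, log2 ratio -0.77). Their median log2 ratio was -0.16 at both ages, where all genes had medians of -0.00 and -0.03, and 15 of the 25 were lower in both AS libraries, an order that 28.9% of all genes had. Of 21 regulators of nephron progenitors and tubules, 2 passed the floor at 5 weeks and 1 at 8 weeks, Eya1, which was lower in AS (15.02 against 26.5 CPM, -0.65). At 8 weeks Eya1 reached the floor of 20 CPM only in WT, where it was higher, so its call does not describe the list.

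Among 19 partners of the members, 12 passed the floor, with medians of -0.11 and -0.12. Past 1.5-fold was 1 at each age, where 3.48% (5 weeks) and 4.09% (8 weeks) of all genes were. Both AS libraries lay below both WT libraries for 7 of the 12 and above them for 2. Of all genes 28.9% lay below and 23.4% above in this way. Cited2, a transcriptional coregulator, was past 1.5-fold at 5 weeks (207.7 CPM in AS against 130.5 CPM in WT, 0.65), and Eya1, which stands in both lists, was lower at 8 weeks. Of 22 genes known as targets of the members, 21 passed the floor, with medians of -0.10 and -0.13, and 1 was past 1.5-fold at 5 weeks and 2 at 8 weeks, all higher, where 2.05% and 2.39% of all genes were higher. Both AS libraries lay below both WT libraries for 10 of the 21 and above them for 2, beside the same 28.9% and 23.4% of all genes. This list includes the members Lmx1b, Foxc2 and Tcf21, and Lmx1b and Foxc2 are among the 10. The chemokine gene Cxcl12 was higher in AS at both ages, at 279 against 133.5 CPM (1.04) and at 200.4 against 81.84 CPM (1.24), and it also differed between the WT libraries by -0.67. Scel, which encodes sciellin, was higher at 8 weeks (76.65 against 47.87 CPM, 0.63). Nphs1 was at 2715 CPM (5 weeks) and 2832 CPM (8 weeks) in WT, and at 2720 and 2334 CPM in AS. Podxl, the gene of the podocyte surface sialomucin, was at 5162 CPM (WT) and 4480 CPM (AS) at 5 weeks, then 4068 (WT) and 3351 CPM (AS) at 8 weeks.

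Beside Cdkn1c, 11 of 26 listed cell cycle genes passed the floor, with medians of 0.06 and -0.02. Ccnd1, a D-type cyclin that acts in G1 phase, was at 16.38 CPM (WT) and 43.57 CPM (AS) at 5 weeks, a log2 ratio of 1.18, then 11.06 and 47.08 CPM, a ratio of 1.70. Cdk6, a kinase that D-type cyclins activate, was at 19.24 and 40.89 CPM (0.92) and at 22.11 and 57.23 CPM (1.20). These were the only members of the list past 1.5-fold, both higher in AS at each age, as Cdkn1c was. They are 2 of 11, where 2.05% (5 weeks) and 2.39% (8 weeks) of all genes were higher. Ccnd1 at both ages and Cdk6 at 5 weeks reached the floor of 20 CPM only in AS, where they were high. The count of 2 therefore does not describe the list as a whole. Of the other inhibitors, Cdkn1b was at 49.55 (WT) and 48.49 CPM (AS) at 5 weeks, then 56.36 and 43.8 CPM at 8 weeks, and Cdkn1a stayed under 2 CPM in every library. Of 27 imprinted genes 11 passed the floor, with medians of 0.05 and 0.14, and Peg3 was past 1.5-fold at both ages, at 26.17 CPM (WT) and 43.96 CPM (AS) (0.65) and then at 26.7 and 45.58 CPM (0.67), as 1 of 11 beside the same shares. Kcnq1ot1, the noncoding RNA of the imprinted domain that holds Cdkn1c, was at 817.9 (WT) and 844.1 CPM (AS) at 5 weeks, then 866 and 985.7 CPM at 8 weeks (0.19), inside 1.5-fold.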

How the data were processed

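The 4 libraries were prepared with the Chromium single-cell chemistry of kit version 2, as the labels state. What the authors deposited are unnormalised UMI counts, 1 matrix of genes by barcodes per library, and the file headers name Cell Ranger 9.0.0. The tools bcl2fastq 2.20.0 and STAR 2.7.2a and the build GRCm38 (mm10) come from the submitters' processing notes. The annotation and strand setting of the counting are not given in the sources used here; 55141 of the 55488 gene IDs are in GENCODE M21.

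Cells below 500 genes or 1000 UMIs or above 20% mitochondrial UMIs were dropped, then doublets called by Scrublet per library (expected 6%; 3.49%, 4.64%, 2.4% and 6.32% called in the 5-week WT, 5-week AS, 8-week WT and 8-week AS libraries). The 5556, 6450, 6135 and 6832 kept cells were clustered together with scanpy 1.11.5, without batch integration and without the 8 members, into 28 clusters (2000 variable genes, 30 components, 15 neighbours, Leiden resolution 1). A name needed 3 markers at 20 CPM, a score 1.5 log2 above that of the second-best class, enough depth and no more markers of another class than of its own among the 10 leading genes. These naming limits were set after the clusters were seen. Shallow clusters with podocyte markers were kept out (1.69%, 1.38%, 13.7% and 1.48% of cells).

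For each class of a library the counts were added up and scaled to CPM (class totals 26980470, 30891253, 39249661 and 31415073 UMIs in podocyte-like cells). Ratios of CPM + 5 have exact conditional binomial intervals, levels exact Poisson and shares Clopper-Pearson intervals. The ratios at one age carry no test, since each genotype and age is 1 library. Genotype over both ages was fitted with age as a term by edgeR 4.0.16 (TMM scaling, quasi-likelihood test, adjusted p under 0.05), a fit added after the data were seen, with DESeq2 1.42.0 as an alternative. The scripts were tested on simulated data, and in the genotype fit over 7024 genes 98% of 200 genes changed 2-fold were called. Those counts were simulated without a difference between ages, unlike the data, so this share does not carry over to the fit given here. Named were all members, at most 4 genes past 1.5-fold per list and age, and for each member the 4 genes with the highest r among genes averaging at least 20 CPM, leaving out mitochondrial, ribosomal, hemoglobin, sex-specific and unnamed genes. Wt1os, Nphs1, Clic3, Podxl, Cdkn1a, Cdkn1b and Kcnq1ot1 were named besides, with their values seen. A second gene planned beside Nphs1 as the yardstick for free RNA is not reported here, and Clic3 took its place. The members and lists were chosen with earlier results of these data known. Alternatives changed the scaling, pseudocount, control library, cell choice, doublets, filters, thinning, resolution and floor.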

Additional observations from a re-analysis of the deposited data

Results flagged for a closer look

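Tcf21 went in opposite directions at the 2 ages, with a log2 ratio of AS over WT of -0.08 at 5 weeks and 0.16 at 8 weeks in podocyte-like cells. With 1 library per group the difference was not tested.

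Cluster 1, which no comparison above uses, was left unnamed because podocyte and parietal epithelial markers scored alike in it, and Spp1, Gpx3 and Pkhd1 led it. Its WT cells numbered 58 (5 weeks) and 227 (8 weeks) and its AS cells 121 and 58. Cdkn1c was at 4402 CPM in its 5-week AS cells (WT 1672 CPM) and at 3125 CPM in its 8-week AS cells (WT 551.2 CPM). At 8 weeks Lmx1b was at 158.5 CPM in AS and 80.98 CPM in WT, and Tcf21 at 650.4 and 278.3 CPM, so Lmx1b was higher in AS here and lower in AS in podocyte-like cells. The podocyte marker Nphs1 moved with these values at 8 weeks, at 1605 CPM in AS and 687.1 CPM in WT, and its part was not tested. At 5 weeks Nphs1 was at 2200 CPM in AS and 1932 CPM in WT.

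In cluster 2, shallow cells with podocyte markers (81 WT and 74 AS cells at 5 weeks), Cdkn1c was at 1.069e+04 CPM in AS and 6058 CPM in WT at 5 weeks, higher in AS as in the podocyte-like cells.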

How the results depend on the processing

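Of 40 alternative values for the 4 called ratios (Gbx1 and Cdkn1c at each age), none changed sign and 3 fell inside 1.5-fold. Without the podocyte cluster holding most AS cells, which at 5 weeks held most WT cells too, Gbx1 was -0.32 at 5 weeks and -0.75 at 8 weeks, and Cdkn1c 0.34 at 8 weeks. As a mean over cells, Cdkn1c at 8 weeks was 0.57. With the other WT library as control, Gbx1 was -0.75 and -1.46 and Cdkn1c 0.78 and 0.66 at 5 and 8 weeks. With median-of-ratios size factors Cdkn1c was 0.83 and 0.68. With a marker gate per cell it was 0.80 and 0.71, and Gbx1 was -1.46 at 8 weeks. With doublets kept Cdkn1c was 0.64 at 8 weeks, and with a pseudocount of 1 CPM Gbx1 was -1.51 at 8 weeks. With cluster 22, an alternative chosen after seeing the data, Gbx1 was -1.54 and Cdkn1c 0.67 at 8 weeks. Of 120 values for ratios not called, 2 passed 1.5-fold, both for Lmx1b at 8 weeks (-0.66 with cluster 22 and -0.66 against WT at 5 weeks), and 7 changed sign. Without a floor 433 genes passed 1.5-fold at 8 weeks, against 282 with it, since more genes are then tested. With Nphs1 alone as the yardstick for free RNA, an alternative chosen after seeing the data, 46 levels of members in other classes passed the limit of 2 times the yardstick. With Clic3 beside Nphs1 30 did, since the share from Nphs1 alone is lower or equal. For the other moved values the cause was not tested. In the fit over both ages, with age as the block that pairs AS and WT, edgeR called 922 genes at an adjusted p under 0.05 and DESeq2 540, with Wt1 (adjusted p = 0.0175) among them. With genotype alone edgeR called 26, and leaving out 1 library each gave 1 to 186, lowest without AS at 8 weeks and highest without AS at 5 weeks. In the latter Gbx1 passed (adjusted p = 0.00158), and no other member passed in these 4 fits. Without replicates the spread between mice is unknown, and Gbx1, at 421 to 1566 UMIs per library, has the widest counting intervals of the called ratios.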
